A study of Mus musculus with 18 samples.

Results

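Collagens are the structural proteins of the extracellular matrix, and their genes were followed here across mouse hindpaw epidermis and dorsal root ganglia (DRG). The family was taken by symbol, as every row of the deposited value table that is paired with exactly 1 gene named Col, a number, a and a number, leaving out Col17a1. This gave 45 rows for 43 genes, of 21789 such rows for 19938 genes in all. A row is the summarised signal of 1 set of probes. Col6a5 and Col6a6 have 2 rows each, written row 1 and row 2, and Col21a1 was not analysed here. The measurements came from 18 one-sample microarrays (Affymetrix Mouse Gene 1.0 ST), with 6 groups of 3. The epidermal groups were CFA mutant, CFA control, naive mutant and naive control, and the DRG groups were mutant and control, both from naive mice. Mutant mice were K14Cre-Trpa1 fl/fl, in which loxP sites surround the exons of the pore domain of Trpa1, the gene of an irritant-gated ion channel. Control mice were K14Cre-Trpa1 +/+, which the labels call wild type. Controls as well as mutants therefore carry Cre, driven by the promoter of keratin 14, a gene of keratinocytes and other squamous epithelia. They were adult males of a mixed C57BL/6, CBA and Swiss Webster background, kept as separate colonies for many generations, so that genotype and colony cannot be told apart. CFA, complete Freund's adjuvant, is an oil emulsion with killed mycobacteria that inflames the injected paw, and CFA epidermis was taken 2 days after injection. No array came from a vehicle-injected paw, and CFA epidermis was therefore set against naive epidermis, which leaves the injection itself within the comparison. Epidermis was peeled from glabrous hindpaw skin after dispase, an enzyme that loosens it from the dermis. DRG were lumbar ganglia, which hold the cell bodies of sensory neurons with their glia, vessels and connective tissue.

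Each collagen molecule is a triple helix of alpha chains, and the genes encode single chains. Fibrillar collagens (I, II, III, V, XI, XXIV and XXVII) build the banded fibres of dermis, tendon and cartilage, and are made mostly by fibroblasts and chondrocytes. Collagen IV forms the sheet of basement membranes, collagen VI forms beaded filaments, and collagen VII forms the anchoring fibrils that fasten the epidermal basement membrane to the dermis. Collagens of the FACIT type, which stands for fibril-associated collagens with interrupted triple helices, sit on the surface of fibres. Keratinocytes are known to secrete collagen VII and chains of collagen IV, whereas the bulk of skin collagen I and III comes from dermal fibroblasts. The 45 rows comprised 11 of fibrillar collagens, 6 of collagen IV, 8 of collagen VI, 1 of collagen VII, 9 of FACIT collagens, 3 of short-chain network collagens (VIII and X), 3 of transmembrane collagens (XIII, XXIII and XXV), 2 of multiplexins (XV and XVIII) and 2 of other collagens (XXVI and XXVIII).

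Values are log2 signals after robust multi-array averaging. Array medians lay between 5.37 and 5.48 in epidermis and between 6.51 and 6.58 in DRG, and comparisons were made within a tissue. Pearson's r between arrays of a group was 0.986 to 0.993 over all rows. Trpa1 lay below background on all 12 epidermal arrays and above it on all 6 DRG arrays, with 8.84, 8.44 and 8.54 in mutant DRG and 8.99, 8.89 and 9.08 in control DRG. The probes of that row are not assigned to the deleted exons in the sources used here, so its level in epidermis checks no label. The epidermal arrays carried keratinocyte transcripts, with the 6 measured differentiated keratinocyte markers averaging 10.86 to 11.89 on every epidermal array and 5.52 to 6.40 on every DRG array. The study calls the 3 arrays of a group biological replicates.

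Background was judged on each array from 1205 rows of odorant and vomeronasal receptors, which neither tissue is known to use, and a row was taken as above background where it exceeded their 95th percentile. That level was 4.70 to 4.79 on CFA and 4.58 to 4.68 on naive epidermal arrays, and 5.77 to 5.93 on DRG arrays. In epidermis 41 of the 45 collagen rows exceeded it on all 12 arrays, 2 on some arrays and 2 on none, beside 64.1% of all rows with exactly 1 gene on all arrays. In DRG 41 rows exceeded it on all 6 arrays, 3 on some and 1 on none, beside 69.3% of all such rows. At the 99th percentile 27 rows remained above on all epidermal arrays and 34 on all DRG arrays, beside 47.8% and 53.9% of all such rows.

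Col10a1, the collagen of hypertrophic cartilage, was above background on 0 of 18 arrays. Its signal lay at 3.93 to 4.51 in epidermis and at 5.21 to 5.81 in DRG. Col6a5 row 1 exceeded background on 2 DRG arrays and on 0 epidermal arrays, while row 2 of the same gene exceeded it on all 18. Col6a6 row 2 exceeded it on 1 array of each tissue and row 1 on all 18, so that both genes had 1 dim and 1 measurable row. Col19a1, a FACIT collagen, was above background on 3 of 12 epidermal and 6 of 6 DRG arrays. Col6a4 was above it on 12 of 12 epidermal and 3 of 6 DRG arrays.

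Exceeding this background is a weak sign of expression. The cartilage collagens Col2a1, Col9a1, Col9a2, Col9a3, Col11a1 and Col11a2 passed on all 12 epidermal arrays, whereas of 7 measured cartilage and bone genes other than collagens only Comp, a cartilage matrix protein, passed on all arrays of each epidermal group. Acan, the core protein of cartilage proteoglycan, lay below background on every epidermal and every DRG array. Over all epidermal arrays the median collagen row stood 1.14 log2 units over background, beside a median of 1.15 for all rows with 1 gene. In DRG the medians were 1.34 for collagen rows and 1.09 for all rows. In epidermis 0 collagen rows averaged more than 3 units over background, a height that 21.6% of all rows reached.

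**Figure D1:**
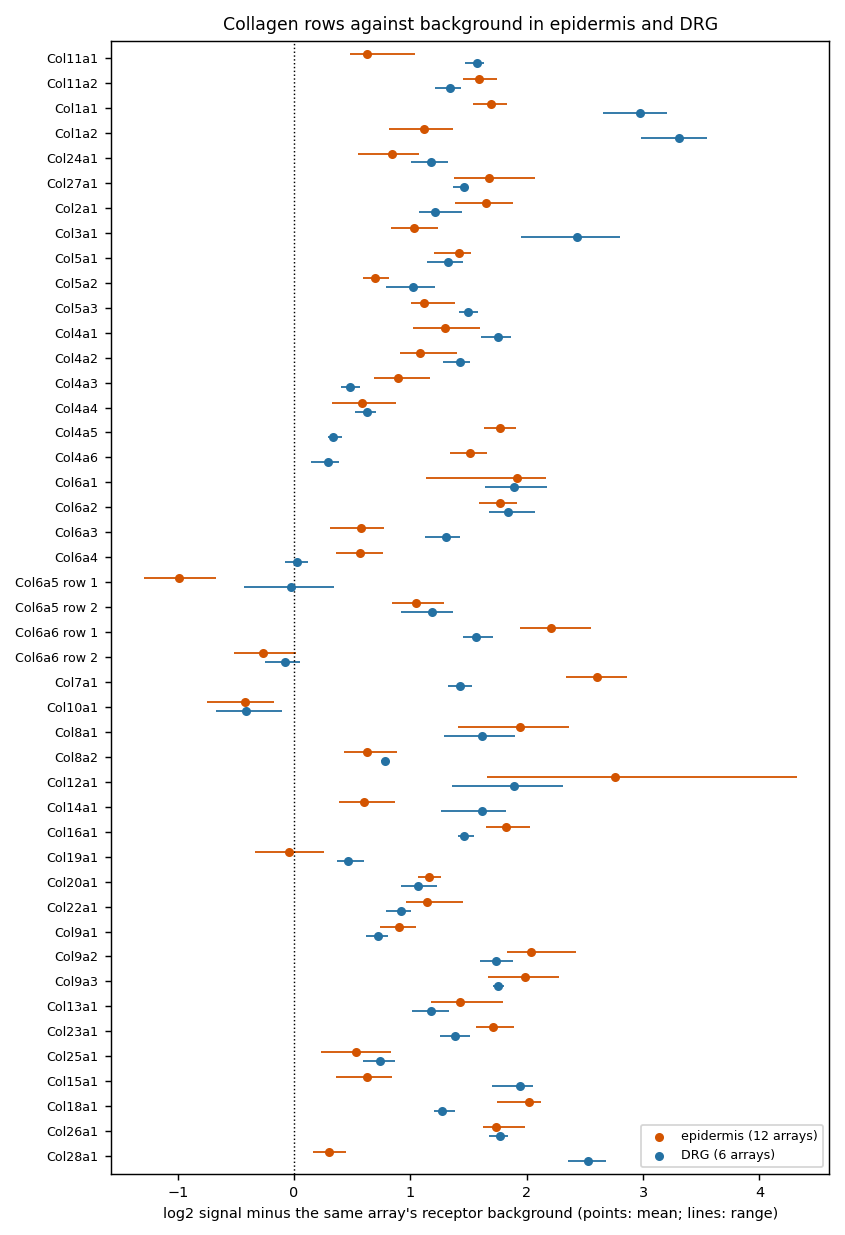
Height of each of the 45 collagen rows over background (log2 signal minus the 95th percentile of receptor rows on the same array), as the mean (points) and range (lines) over 12 epidermal arrays (orange) and 6 DRG arrays (blue). Rows differ in their probes and are not compared with each other. Col1a1, Col1a2, Col3a1 and Col28a1 stand further over background in DRG than in epidermis, Col7a1, Col4a5 and Col4a6 stand further over it in epidermis, and Col10a1 lies to the left of 0 in both.

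The height of a row over the background of its own array differed between the tissues for several genes. Such a height takes out an offset between arrays, but not a difference in the range of their signals. Col1a2, a chain of collagen I, stood 0.82 to 1.36 units over background on the 12 epidermal arrays and 2.98 to 3.55 units over it on the 6 DRG arrays. Col1a1, the other chain of collagen I, stood 1.54 to 1.83 units over background in epidermis and 2.66 to 3.20 units in DRG. The arrays of the 2 tissues did not overlap for either chain. Col1a2 was the sole collagen row of 45 to average more than 3 units over background in DRG, a height that 15.02% of all rows reached there.

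Col3a1, the partner of collagen I in skin fibres, stood 0.83 to 1.23 units over background in epidermis and 1.95 to 2.80 units in DRG. Col28a1, a collagen known from the sheaths of peripheral nerves and from satellite glia, also stood higher over background in DRG. Col28a1 read 5.06, 5.01 and 4.93 in CFA mutant, 5.24, 4.88 and 5.07 in CFA control, 4.83, 5.0 and 5.0 in naive mutant and 4.86, 4.96 and 4.86 in naive control epidermis. Col28a1 read 8.34, 8.39 and 8.33 in mutant DRG and 8.18, 8.51 and 8.56 in control DRG. It therefore cleared background by 0.16 to 0.45 units in epidermis and by 2.35 to 2.68 units in DRG, and genotype groups overlapped in both tissues. The collagen IV chains did not all differ in one direction. Col4a1 averaged 1.30 units over background in epidermis and 1.76 in DRG, Col4a2 1.08 and 1.42, Col4a4 0.59 and 0.63, and Col4a3 0.89 and 0.48. Col4a5, a chain of epidermal basement membrane, stood 1.63 to 1.91 units over background in epidermis and 0.29 to 0.41 units in DRG, and Col4a6, which pairs with it, 1.34 to 1.66 units in epidermis and 0.15 to 0.38 units in DRG. Col7a1 stood 2.34 to 2.86 units over background in epidermis and 1.32 to 1.53 units in DRG. These heights were not tested between tissues, whose array medians differ by about 1 unit.

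Markers of connective tissue differed between the tissues as well. Of 14 measured fibroblast markers other than collagens, 12 exceeded background on all arrays of each DRG group, and 7 to 9 on all arrays of each epidermal group. Their summed linear signal was 11872 to 13701 in mutant DRG and 11477 to 14046 in control DRG, against 2437 to 3212 in CFA mutant, 2865 to 2927 in CFA control, 1844 to 1990 in naive mutant and 2009 to 2062 in naive control epidermis. These sums take out no offset between the tissues, whose array medians were 6.51 to 6.58 in DRG and 5.37 to 5.48 in epidermis. Bright genes weigh most in them. In DRG Dcn read 11.99 to 12.42, Sparc 11.30 to 11.75 and Thy1, which some nerve cells also make, 11.18 to 11.51. The sums are therefore no measure of connective tissue content. Lum, a small proteoglycan of fibroblasts, lay at 2.26 to 2.98 in epidermis and was below background on every epidermal array, as were Dpt and Mfap4. Dcn, decorin, reached 8.85 to 9.74 in epidermis, and Sparc, a collagen-binding matrix protein that keratinocytes can also make, 9.18 to 10.60. Of 8 endothelial markers 3 exceeded background on all arrays of each epidermal group. The share of these collagen signals that came from cells other than keratinocytes was not tested, and in whole tissue a change in the number of cells of a type cannot be told apart from a change in RNA per cell.

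The main question for the collagens in epidermis was how they responded to CFA. Collagen rows were mostly higher in CFA than in naive epidermis of both genotypes. Each comparison used limma, a linear model per row whose estimate of the spread borrows from the other rows, with Benjamini-Hochberg adjustment over 23410 rows, and a row was called at an adjusted p under 0.05. In mutant epidermis 15 of 45 collagen rows were called higher and 0 lower, where 12.9% of all rows were called higher and 13.1% lower. In control epidermis 11 of 45 were called higher and 0 lower, where 11.5% of all rows were called higher and 14.8% lower. The called collagen rows were thus 33.3% of the family in mutant and 24.4% in control epidermis. The median log2 fold change of the collagen rows was 0.21 in mutant and 0.25 in control epidermis, beside 0.04 and 0.03 over all rows tested, and 42 of 45 rows were positive in each genotype, beside 56.5% of all rows in mutant and 54.2% in control epidermis. Of the called rows 8 were shared, which were 53.3% of those called in mutant and 72.7% of those called in control epidermis. CFA arrays lay wholly above naive arrays in 27 of 45 collagen rows in mutant epidermis, beside 24.0% of all rows. In control epidermis they did so in 25 of 45, beside 21.7%.

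**Figure D2:**
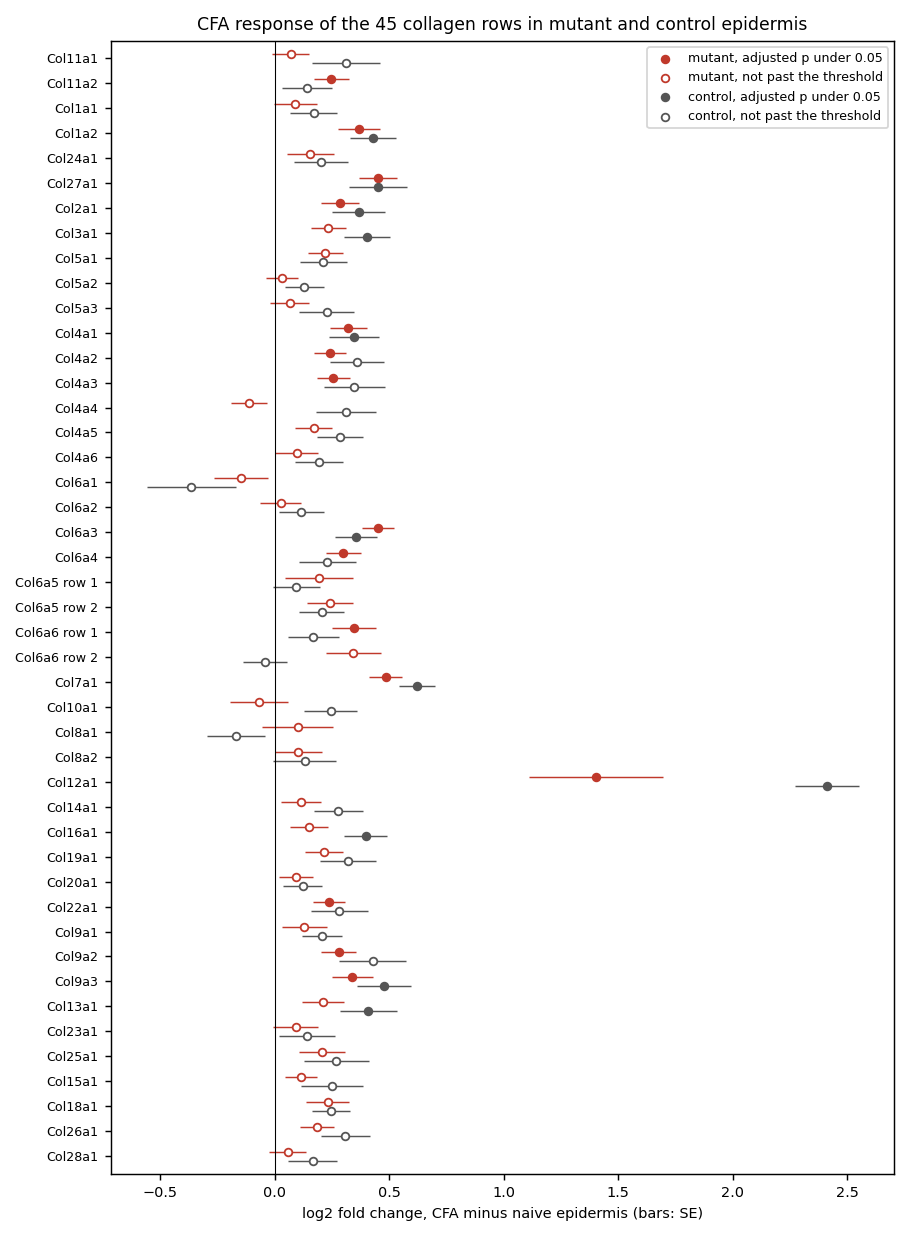
Log2 fold change of each collagen row, CFA minus naive epidermis, in mutant (red) and control (grey) mice, with SE bars from 3 arrays per group. Filled points passed an adjusted p of 0.05, and open points did not. Col12a1 lies at 1.40 in mutant and 2.41 in control mice, Col7a1 at 0.48 and 0.62, and every other row lies below 0.5.

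Col12a1 changed most. It encodes collagen XII, a FACIT collagen that sits on collagen I fibres and is known from tissues under mechanical load and from healing wounds. Col12a1 read 7.66, 7.25 and 8.64 in CFA mutant epidermis against 6.42, 6.47 and 6.45 in naive mutant epidermis, and 8.81, 8.96 and 9.02 in CFA control epidermis against 6.80, 6.24 and 6.51 in naive control epidermis. All CFA arrays lay above all naive arrays, and within the CFA groups the control arrays lay close together while CFA mutant replicate 3 stood well above the other two mutant arrays. The signal was 2.65-fold higher with CFA in mutant epidermis (log2 fold change 1.40, SE 0.29, limma adjusted p = 0.00908) and 5.32-fold higher in control epidermis (log2 fold change 2.41, SE 0.14, limma adjusted p = 4.04e-06). In DRG, which were all from naive mice, it read 7.28, 8.08 and 7.93 in mutant and 7.45, 8.10 and 7.65 in control ganglia.

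Col7a1, the anchoring fibril collagen that keratinocytes secrete, was called in both genotypes with little spread. Col7a1 read 7.53, 7.60 and 7.50 in CFA mutant epidermis against 7.0, 7.10 and 7.08 in naive mutant epidermis, and 7.60, 7.55 and 7.56 in CFA control epidermis against 6.95, 6.94 and 6.96 in naive control epidermis. The CFA arrays of both genotypes lay close together and well above every naive array. Col7a1 rose 1.40-fold in mutant (log2 fold change 0.48, SE 0.07, limma adjusted p = 0.00199) and 1.54-fold in control epidermis (log2 fold change 0.62, SE 0.08, limma adjusted p = 0.000467). Col12a1 and Col7a1 kept these calls when each array was left out in turn, in both genotypes.

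**Figure D3:**
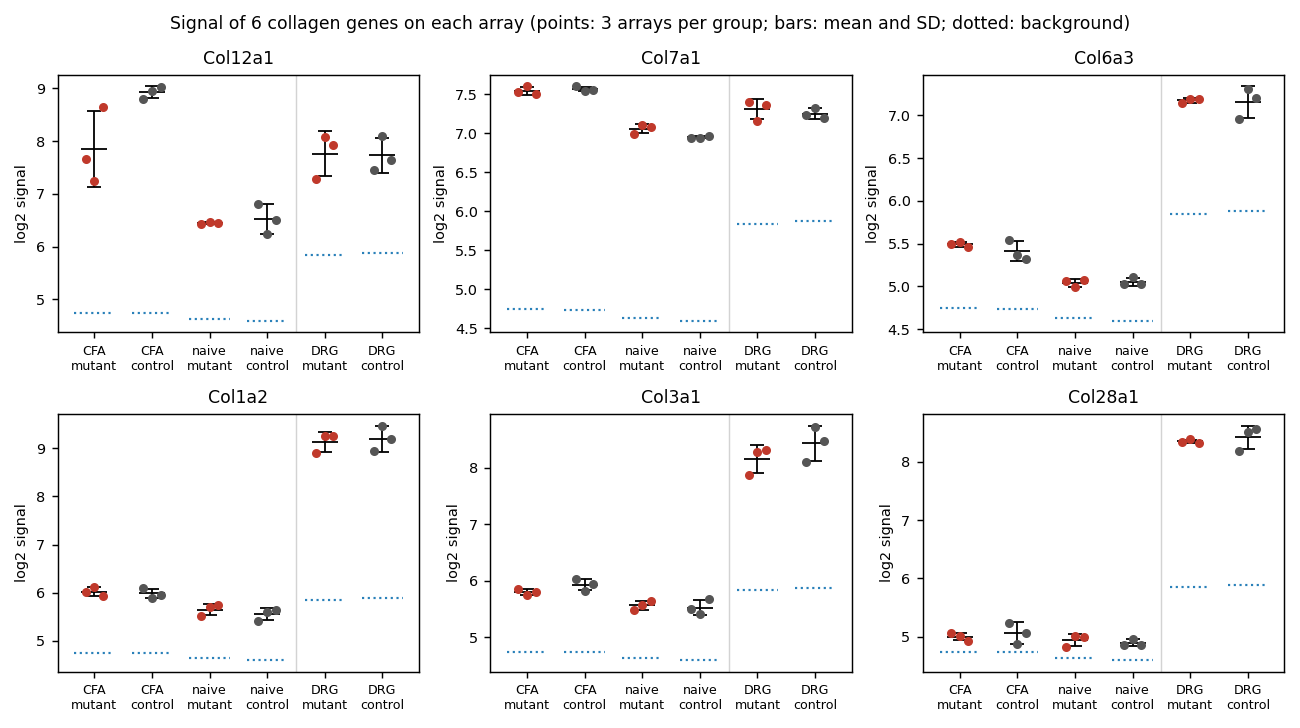
Log2 signal of Col12a1, Col7a1, Col6a3, Col1a2, Col3a1 and Col28a1 on each of the 18 arrays (points; mutant in red, control in grey), with the mean and SD of each group of 3 and the mean background of the group (dotted blue). CFA epidermal arrays lie above naive arrays of the same genotype for Col12a1, Col7a1, Col6a3, Col1a2 and Col3a1, in both genotypes. Col28a1 lies near background in epidermis and well over it in DRG.

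Fibrillar collagens shifted by small amounts. Of their 11 rows 4 were called higher in mutant epidermis (Col27a1, Col1a2, Col2a1 and Col11a2) and 4 in control epidermis (Col1a2, Col3a1, Col27a1 and Col2a1), and the median log2 fold change was 0.22 in mutant and 0.23 in control epidermis. Col1a2 read 6.01, 6.11 and 5.92 in CFA mutant epidermis against 5.51, 5.69 and 5.74 in naive mutant epidermis, and 6.09, 5.89 and 5.96 in CFA control epidermis against 5.41, 5.61 and 5.64 in naive control epidermis. Col1a2 was higher on every CFA array than on any naive array of the same genotype, by 1.29-fold in mutant (limma adjusted p = 0.0182) and 1.35-fold in control epidermis (limma adjusted p = 0.0122). Col3a1 read 5.85, 5.75 and 5.81 in CFA mutant epidermis against 5.49, 5.57 and 5.64 in naive mutant epidermis, and 6.02, 5.82 and 5.94 in CFA control epidermis against 5.50, 5.41 and 5.67 in naive control epidermis. The difference in Col3a1 passed the threshold in control epidermis (1.32-fold, limma adjusted p = 0.0172) and missed it in mutant epidermis (1.18-fold, limma adjusted p = 0.0524), although the mutant groups did not overlap either.

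Col1a1 read 6.31, 6.58 and 6.37 in CFA mutant epidermis against 6.24, 6.32 and 6.42 in naive mutant epidermis, and 6.62, 6.40 and 6.35 in CFA control epidermis against 6.18, 6.37 and 6.30 in naive control epidermis. The CFA and naive arrays overlapped for this chain in both genotypes, and its log2 fold change was 0.09 in mutant (95% confidence interval -0.12 to 0.31) and 0.17 in control epidermis (-0.06 to 0.40), so that the rows of the 2 chains of collagen I fell on different sides of the threshold. Col27a1 read 6.56, 6.45 and 6.66 in CFA mutant epidermis against 6.10, 6.06 and 6.16 in naive mutant epidermis, and 6.86, 6.55 and 6.41 in CFA control epidermis against 6.15, 6.04 and 6.28 in naive control epidermis. Col27a1, a fibrillar collagen of cartilage, rose 1.37-fold in mutant and 1.37-fold in control epidermis (limma adjusted p = 0.00476 and 0.0288). Col2a1 read 6.45, 6.49 and 6.51 in CFA mutant epidermis against 6.08, 6.17 and 6.33 in naive mutant epidermis, and 6.67, 6.49 and 6.34 in CFA control epidermis against 5.98, 6.17 and 6.25 in naive control epidermis. Col2a1, the main cartilage collagen, rose 1.22-fold in mutant and 1.29-fold in control epidermis. Col11a2, another cartilage chain, was called in mutant epidermis with a 1.19-fold difference and missed the threshold in control epidermis with 1.1-fold. Col5a1, Col5a2, Col5a3, Col11a1 and Col24a1 were called in neither genotype.

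Collagen IV chains were called higher in 3 of 6 rows in mutant and 1 of 6 in control epidermis. Col4a1 read 6.00, 6.17 and 6.12 in CFA mutant epidermis against 5.79, 5.7 and 5.84 in naive mutant epidermis, and 6.39, 6.14 and 6.03 in CFA control epidermis against 5.81, 5.80 and 5.92 in naive control epidermis. Col4a1, a chain of every basement membrane, rose 1.25-fold in mutant and 1.27-fold in control epidermis (limma adjusted p = 0.0189 and 0.0451). Col4a2 read 5.83, 5.93 and 5.84 in CFA mutant epidermis against 5.62, 5.62 and 5.63 in naive mutant epidermis, and 6.20, 5.87 and 5.81 in CFA control epidermis against 5.51, 5.71 and 5.57 in naive control epidermis. Its partner Col4a2 was 1.18-fold higher in mutant (limma adjusted p = 0.0364) and 1.28-fold in control epidermis (limma adjusted p = 0.0532), where it missed the threshold. Col4a3 read 5.64, 5.76 and 5.68 in CFA mutant epidermis against 5.48, 5.42 and 5.42 in naive mutant epidermis, and 5.96, 5.80 and 5.47 in CFA control epidermis against 5.28, 5.35 and 5.55 in naive control epidermis. Col4a3, a chain known from kidney and lung basement membrane, was called in mutant epidermis at 1.19-fold and missed the threshold in control epidermis at 1.27-fold, where CFA control replicate 3 overlapped the naive arrays.

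Col4a5 read 6.56, 6.65 and 6.49 in CFA mutant epidermis against 6.44, 6.45 and 6.31 in naive mutant epidermis, and 6.67, 6.61 and 6.37 in CFA control epidermis against 6.32, 6.21 and 6.26 in naive control epidermis. Col4a6 read 6.39, 6.40 and 6.11 in CFA mutant epidermis against 6.17, 6.22 and 6.24 in naive mutant epidermis, and 6.37, 6.21 and 6.11 in CFA control epidermis against 6.03, 5.92 and 6.15 in naive control epidermis. Both chains had positive differences in each genotype and neither passed the threshold, with Col4a5 at a log2 fold change of 0.17 in mutant and 0.29 in control epidermis and Col4a6 at 0.10 and 0.19. Col4a4 was the one collagen IV row with opposite signs, at -0.11 in mutant and 0.31 in control epidermis, and it was called in neither.

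Collagen VI rows were called higher in 3 of 8 in mutant and 1 of 8 in control epidermis. Col6a3 read 5.49, 5.52 and 5.46 in CFA mutant epidermis against 5.06, 4.99 and 5.08 in naive mutant epidermis, and 5.55, 5.37 and 5.32 in CFA control epidermis against 5.03, 5.11 and 5.03 in naive control epidermis. Col6a3, the large chain of the collagen VI trimer, rose 1.37-fold in mutant (limma adjusted p = 0.00227) and 1.28-fold in control epidermis (limma adjusted p = 0.0197), with no overlap of CFA and naive arrays. Col6a6 row 1 read 6.98, 7.04 and 7.26 in CFA mutant epidermis against 6.67, 6.74 and 6.84 in naive mutant epidermis, and 6.94, 6.95 and 6.93 in CFA control epidermis against 6.53, 6.89 and 6.89 in naive control epidermis. Col6a4 read 5.32, 5.37 and 5.45 in CFA mutant epidermis against 5.01, 5.10 and 5.13 in naive mutant epidermis, and 5.48, 5.25 and 5.37 in CFA control epidermis against 5.08, 4.94 and 5.39 in naive control epidermis. Col6a6 row 1 and Col6a4, chains that can take the place of Col6a3, were called in mutant epidermis at 1.27-fold and 1.23-fold and missed the threshold in control epidermis, where the groups overlapped for Col6a4.

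Col6a1 read 6.63, 6.79 and 6.33 in CFA mutant epidermis against 6.67, 6.73 and 6.79 in naive mutant epidermis, and 6.75, 6.44 and 5.83 in CFA control epidermis against 6.68, 6.72 and 6.72 in naive control epidermis. Col6a2 read 6.36, 6.64 and 6.57 in CFA mutant epidermis against 6.5, 6.48 and 6.53 in naive mutant epidermis, and 6.39, 6.61 and 6.34 in CFA control epidermis against 6.31, 6.31 and 6.37 in naive control epidermis. These 2 chains, which join Col6a3 in the common trimer, did not pass the threshold in either genotype. Col6a1 was the row with the lowest value in control epidermis, at a log2 fold change of -0.36 (limma adjusted p = 0.200), and CFA control replicate 3 alone lay far below the other arrays. Without CFA control replicate 1 it was called lower, at -0.57 with a limma adjusted p of 0.0464. The 3 chains of the trimer thus had differences of -0.15, 0.03 and 0.45 in mutant epidermis and -0.36, 0.12 and 0.36 in control epidermis, in the order Col6a1, Col6a2 and Col6a3.

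Of the 9 FACIT rows 4 were called higher in mutant and 3 in control epidermis, Col12a1 among them in each. Col9a3 read 6.82, 6.85 and 6.78 in CFA mutant epidermis against 6.39, 6.39 and 6.64 in naive mutant epidermis, and 7.07, 6.88 and 6.82 in CFA control epidermis against 6.26, 6.63 and 6.45 in naive control epidermis. Col9a2 read 6.95, 6.85 and 6.85 in CFA mutant epidermis against 6.57, 6.54 and 6.69 in naive mutant epidermis, and 7.22, 6.90 and 6.57 in CFA control epidermis against 6.48, 6.47 and 6.46 in naive control epidermis. Col9a3, a cartilage chain, rose 1.27-fold in mutant and 1.39-fold in control epidermis, and Col9a2, its partner, was called in mutant epidermis at 1.21-fold (limma adjusted p = 0.0287) and not in control epidermis at 1.35-fold (limma adjusted p = 0.0590). Col16a1 read 6.51, 6.48 and 6.66 in CFA mutant epidermis against 6.30, 6.45 and 6.45 in naive mutant epidermis, and 6.82, 6.73 and 6.61 in CFA control epidermis against 6.25, 6.39 and 6.33 in naive control epidermis. Col16a1 was called in control epidermis at 1.32-fold (limma adjusted p = 0.0124) and not in mutant epidermis at 1.11-fold (limma adjusted p = 0.223). Col22a1 was called in mutant epidermis at 1.18-fold.

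Among the remaining classes, 1 of 3 transmembrane collagens was called. Col13a1 read 6.19, 6.21 and 6.21 in CFA mutant epidermis against 6.06, 6.11 and 5.81 in naive mutant epidermis, and 6.58, 6.25 and 6.13 in CFA control epidermis against 5.83, 6.02 and 5.89 in naive control epidermis. Col13a1, a collagen of cell adhesion sites, rose 1.33-fold in control epidermis (limma adjusted p = 0.0394) and was 1.16-fold higher in mutant epidermis, short of the threshold. Col23a1 read 6.33, 6.32 and 6.56 in CFA mutant epidermis against 6.17, 6.34 and 6.42 in naive mutant epidermis, and 6.68, 6.47 and 6.32 in CFA control epidermis against 6.39, 6.17 and 6.48 in naive control epidermis. Col18a1 read 6.84, 6.87 and 6.76 in CFA mutant epidermis against 6.63, 6.42 and 6.72 in naive mutant epidermis, and 6.84, 6.78 and 6.81 in CFA control epidermis against 6.48, 6.64 and 6.57 in naive control epidermis. Col23a1, another transmembrane collagen, overlapped between CFA and naive arrays in both genotypes, and Col18a1, a basement membrane collagen whose end fragment is endostatin, had CFA arrays above naive arrays with a log2 fold change of 0.23 in mutant and 0.25 in control epidermis and passed in neither. Col15a1, Col26a1, Col28a1 and the short-chain collagens Col8a1, Col8a2 and Col10a1 were called in neither genotype.

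Apart from Col12a1 the called differences were between 1.18-fold and 1.54-fold, and only Col12a1 reached 2-fold in either genotype. Without 1 array at a time, 4 to 11 rows were called in mutant and 2 to 17 in control epidermis. The shares of all rows called in these fits are not given here. The counts alone therefore do not tell a change in the collagens from a change in all calls. The count in control epidermis fell to 2 without naive control replicate 1, 6 without naive control replicate 2, 7 without naive control replicate 3 and 7 without CFA control replicate 2, and was 17 without CFA control replicate 3. In mutant epidermis it was 4 without naive mutant replicate 1, 5 without naive mutant replicate 2, 9, 5 and 8 without CFA mutant replicates 1, 2 and 3 in turn, and 11 without naive mutant replicate 3. Col27a1 and Col6a3 kept their calls in mutant epidermis under each of these, as did Col12a1 and Col7a1 in both genotypes, whereas Col4a2, Col11a2 and Col22a1 lost theirs without any 1 of the 6 mutant arrays. CFA control replicate 1 held the highest value of its group in 37 of the 45 collagen rows and CFA control replicate 3 the lowest in 32. CFA control replicate 1 also had the highest array median and background of its group, at 5.48 and 4.79. The part of such array-wide differences was not tested.

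Marker lists of cells other than keratinocytes mostly had small positive medians with CFA. The median log2 fold change of 8 endothelial markers was 0.07 in mutant and 0.18 in control epidermis, that of 5 Schwann cell and satellite glia markers 0.11 and 0.14, and that of 7 cartilage and bone markers 0.12 and 0.12. It was 0.17 and 0.14 for 7 pericyte and smooth muscle markers, 0.11 and 0.12 for 7 sensory neuron markers, -0.0095 and 0.21 for 6 macrophage markers, and 0.05 and -0.08 for 6 skeletal muscle markers. The receptor rows that set the background had medians of 0.02 and 0.01. Their 95th percentile, the level taken as background, was nevertheless higher on every CFA array (4.70 to 4.79) than on any naive array (4.58 to 4.68). Of 14 fibroblast markers 4 were called higher in mutant epidermis (Sparc, Thy1, Fbln1 and Mgp) and 4 higher and 1 lower in control epidermis, with medians of 0.20 and 0.18. Sparc rose 2.19-fold in mutant and 2.36-fold in control epidermis, Thy1, a surface protein of fibroblasts and of some immune and nerve cells, 2.04-fold and 2.48-fold, and Dcn, which binds collagen fibres, fell 1.57-fold in control epidermis. Basal keratinocyte markers were called higher in 6 of 7 in mutant and 5 of 7 in control epidermis. Among them Itga6, the integrin of hemidesmosomes, rose 2.25-fold and 2.10-fold. Differentiated keratinocyte markers were called lower in 3 of 6 and 4 of 6. Over all rows 12.9% were called higher and 13.1% lower in mutant, and 11.5% higher and 14.8% lower in control epidermis. In mutant epidermis the call of Lamb3 was lost without any 1 array, and that of Krt5 was kept in 1 of 6 such fits. In control epidermis that of Krt14 was kept in 2 of 6. The other basal calls were kept without each array in turn. The part of these marker shifts and of the higher background level in the collagen result was not tested.

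Promoter sequences are shown for Col7a1, which was called in both genotypes under every left-out array, and for Col1a2 and Col3a1, called fibrillar chains, as members that moved together with CFA in control epidermis. RefSeq windows (GRCm38.p6) were found for 34 of the 43 genes, not for Col12a1. Each run gives the 250 bases before the annotated start site on the plus strand, with capitals for matches to any of 4 motifs searched on both strands, which are AP-1 (TGANTCA), the GC box (GGGCGG), the TATA box (TATAAA) and the CCAAT box (CCAAT).

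Col7a1, chr9:108953336-108953585, with a CCAAT box on the reverse strand and a GC box:
Col7a1: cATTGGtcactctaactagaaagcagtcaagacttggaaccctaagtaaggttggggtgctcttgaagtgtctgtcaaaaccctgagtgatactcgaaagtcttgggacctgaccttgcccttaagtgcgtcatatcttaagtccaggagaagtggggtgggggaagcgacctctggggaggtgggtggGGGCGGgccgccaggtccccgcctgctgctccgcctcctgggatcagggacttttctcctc
Col1a2, chr6:4505368-4505617, with 2 GC boxes and a CCAAT box:
Col1a2: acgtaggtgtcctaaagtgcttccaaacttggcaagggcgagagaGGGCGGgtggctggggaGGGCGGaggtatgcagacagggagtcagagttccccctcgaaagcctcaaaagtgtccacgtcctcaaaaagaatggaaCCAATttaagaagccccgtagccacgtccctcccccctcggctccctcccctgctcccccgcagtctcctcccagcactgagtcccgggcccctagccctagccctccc
Col3a1, chr1:45311288-45311537, with a TATA box:
Col3a1: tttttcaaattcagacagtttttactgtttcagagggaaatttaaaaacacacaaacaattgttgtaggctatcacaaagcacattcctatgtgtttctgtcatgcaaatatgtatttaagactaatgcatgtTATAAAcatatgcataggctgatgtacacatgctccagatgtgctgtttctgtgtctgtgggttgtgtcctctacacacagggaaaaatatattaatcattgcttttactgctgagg

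The AP-1 motif was in 0 of these 3 windows. Among 37 windows of collagen genes it was in 1, or 2.70%, beside 6.75% of all 32851 windows. The GC box was in 22 of 37 (59.5%) beside 32.7% of all windows, the TATA box in 4 (10.8%) beside 12.4%, and the CCAAT box in 12 (32.4%) beside 33.9%. A match describes letters only, and the motifs do not overlap within the 3 windows shown.

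Genes that modify and fold collagen chains in the endoplasmic reticulum also responded to CFA. Of 17 measured, 8 were called higher and 1 lower in each genotype, with median log2 fold changes of 0.28 and 0.30. Over all rows 12.9% were called higher and 13.1% lower in mutant, and 11.5% higher and 14.8% lower in control epidermis. P4ha3, a catalytic subunit of prolyl 4-hydroxylase, which hydroxylates the prolines that hold the helix together, changed most. P4ha3 read 7.04, 7.14 and 8.91 in CFA mutant epidermis against 4.71, 4.37 and 4.34 in naive mutant epidermis, and 7.51, 7.53 and 7.92 in CFA control epidermis against 4.92, 4.76 and 4.62 in naive control epidermis. Naive arrays lay near background, with 1 of 3 naive mutant and 3 of 3 naive control arrays above it, all CFA arrays lay far above them, and CFA mutant replicate 3 again stood above the other two. P4ha3 rose in mutant epidermis, where the fitted log2 difference of 3.22 (SE 0.43, limma adjusted p = 0.00104) is not given as a fold because 2 of the 3 naive arrays were below background. In control epidermis it rose 7.40-fold, a log2 difference of 2.89 (SE 0.13, limma adjusted p = 1.19e-06). Without CFA mutant replicate 3 the difference in mutant epidermis was 2.61, below the one in control epidermis, and the genotypes were not shown to differ (interaction, limma adjusted p = 0.908). P4ha3, Serpinh1 and P3h4 kept their calls without each array in turn. The sister subunits of P4ha3 had log2 fold changes of 0.28 and 0.26 for P4ha1 and 0.03 and -0.05 for P4ha2 in mutant and control epidermis, and P4ha1 in mutant epidermis alone was called.

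Serpinh1, the collagen chaperone HSP47, rose in both genotypes. Serpinh1 read 6.66, 6.58 and 6.84 in CFA mutant epidermis against 6.26, 6.01 and 6.05 in naive mutant epidermis, and 7.32, 7.04 and 6.94 in CFA control epidermis against 6.23, 6.19 and 6.34 in naive control epidermis. The difference was 1.5-fold in mutant and 1.79-fold in control epidermis (limma adjusted p = 0.00349 and 0.000591), with no overlap. Plod3, a lysyl hydroxylase that also adds sugars to collagen, rose 1.43-fold and 1.73-fold, Ppib, the isomerase cyclophilin B, 1.36-fold and 1.42-fold, and Colgalt1, a collagen galactosyltransferase, 1.35-fold and 1.37-fold in mutant and control epidermis. Plod2, the lysyl hydroxylase of the ends of the chains, read 4.22, 4.08 and 4.71 in CFA mutant and 4.85, 4.79 and 5.46 in CFA control epidermis, against 4.15, 3.97 and 4.05 in naive mutant and 4.25, 4.12 and 4.11 in naive control epidermis. It was called higher in control epidermis (limma adjusted p = 0.00432) and not in mutant epidermis (limma adjusted p = 0.212), and since its naive arrays were all below background no fold is given. P3h4, a component of the complex that guides lysine hydroxylation, fell 1.75-fold in mutant and 2.0-fold in control epidermis.

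**Figure D4:**
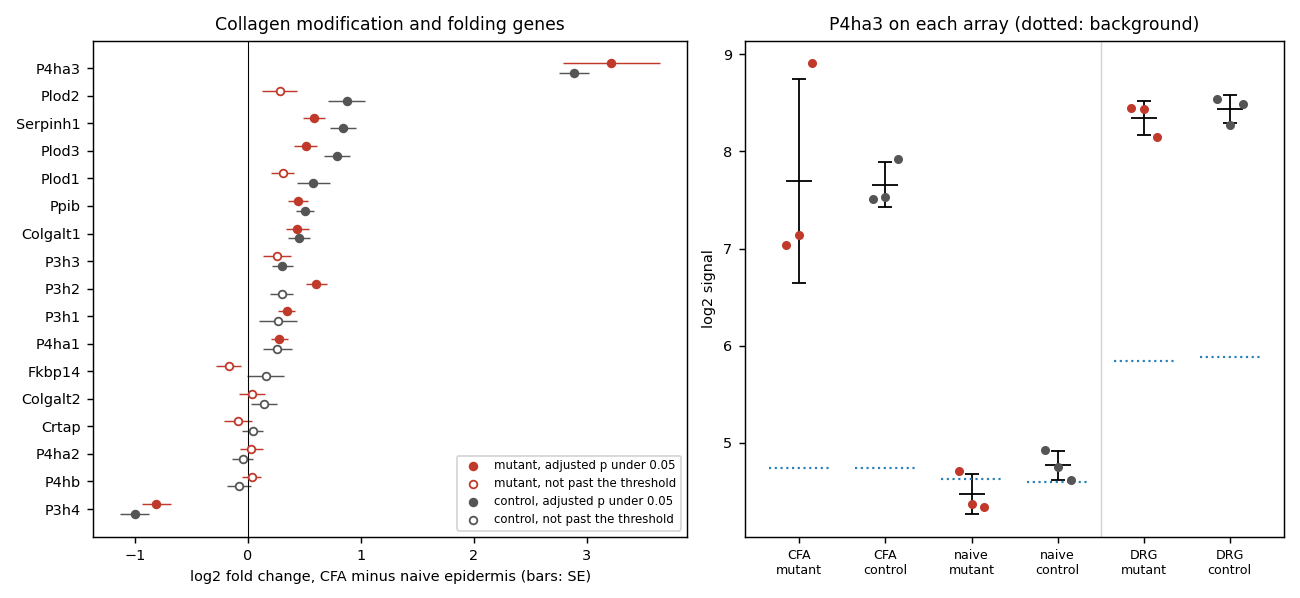
Left, log2 fold change with CFA of the 17 measured genes of collagen modification and folding in mutant (red) and control (grey) epidermis, with SE bars and filled points past an adjusted p of 0.05. Right, log2 signal of P4ha3 on each array with the mean and SD of 3 arrays per group and background (dotted). P4ha3 lies at 3.22 in mutant mice, where 2 of 3 naive arrays are below background and the value is 2.61 without CFA mutant replicate 3, and at 2.89 in control mice, and P3h4 lies at -0.81 and -1.0.

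Genes of later steps and collagen receptors were set beside all rows, of which 12.9% were called higher and 13.1% lower in mutant and 11.5% higher and 14.8% lower in control epidermis. Of 11 genes of procollagen processing and cross-linking only Loxl1, a lysyl oxidase, was called, higher in both genotypes. No fold is given for Loxl1, since only 1 of 3 naive arrays of each genotype exceeded background, and its call was kept without 2 of the 6 arrays in mutant and 1 of the 6 in control epidermis. Among 15 genes of collagen breakdown, 0 rose and 2 fell in mutant epidermis, and 2 rose and 2 fell in control epidermis. Timp3, a matrix-bound inhibitor of metalloproteinases, read 6.91, 7.28 and 6.83 in CFA mutant and 6.09, 6.27 and 6.09 in CFA control epidermis, against 8.60, 8.57 and 8.52 in naive mutant and 8.51, 8.87 and 8.63 in naive control epidermis. It fell 2.95-fold with CFA in mutant and 5.74-fold in control epidermis, and all CFA mutant arrays lay above all CFA control arrays. Timp2, another inhibitor, fell 2.53-fold and 2.07-fold, with 2 of 3 CFA arrays of each genotype above background. Of 8 collagen receptors 4 were called higher in mutant epidermis (Ddr1, Itga10, Itga2 and Itgb1) and 3 in control epidermis (Ddr1, Itga1 and Itga10). Ddr1, a receptor tyrosine kinase that binds collagen, rose 1.38-fold and 1.56-fold. Itga1, a chain of a collagen-binding integrin, was below background on all naive arrays and above it on the 3 CFA control arrays. In CFA mutant epidermis Itga1 read 4.40, 4.73 and 5.30, with replicate 3 alone above background.

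The 3 comparisons of genotype asked whether the mutant mice differed in these genes. In CFA epidermis 0 of 45 collagen rows were called higher and 0 lower, where 0.0812% of all rows were called higher and 0.0982% lower by limma. At an unadjusted p under 0.05, 1 collagen row was higher and 1 lower, where 5.05% of all rows were higher and 3.91% lower, and an ordinary linear model without shared spread called 0. The median log2 fold change was -0.03, beside 0.01 for all rows. Col12a1 was lowest. The 3 CFA mutant arrays, at 7.66, 7.25 and 8.64, all lay below the 3 CFA control arrays, at 8.81, 8.96 and 9.02. Its log2 fold change, mutant minus control, was -1.08 (95% confidence interval -1.72 to -0.44, limma adjusted p = 0.251), which did not pass. Without CFA mutant replicate 3 it was -1.47 with a limma adjusted p of 0.00377, and without CFA mutant replicate 2 it was -0.78 with a limma adjusted p of 0.635, so that the size and the call depend on single mutant arrays. CFA mutant replicate 3 was also the highest of its group for P4ha3, Plod2, Itga1, Mgp and Fbln1. It was the lowest of its group for other fibroblast markers, among them Pdgfra, Fbln2 and Pi16. Both sets of genes were singled out after their values were seen. Over the 45 collagen rows this replicate was the highest of its group in 12 and the lowest in 16. It had the lowest mean of the differentiated keratinocyte markers, at 10.86 beside 11.16 and 11.17.

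Col8a1, a short-chain collagen of vessels and cornea, read 6.81, 6.48 and 7.07 in CFA mutant and 6.53, 6.58 and 6.12 in CFA control epidermis and overlapped, with a log2 fold change of 0.38 (limma adjusted p = 0.555). Col4a4 lay below the control arrays on all mutant arrays, at 5.23, 5.08 and 5.23 against 5.67, 5.44 and 5.24, and did not pass (limma adjusted p = 0.560). Col12a1 and Col4a4 were the 2 of 45 collagen rows with mutant arrays wholly below control arrays, as were 5.6% of all rows. Mutant arrays lay wholly above in 1 collagen row, beside 8.7% of all rows. For Col7a1 the interval of the difference was -0.22 to 0.17 log2 units and for Col1a1 -0.29 to 0.21. Timp3 was the sole gene of the 4 pathway lists called between genotypes in CFA epidermis, 1.81-fold higher in mutant than in control (limma adjusted p = 0.0435), and of the marker genes Csf1r, the receptor of macrophage and Langerhans cell growth factors, was 1.71-fold lower in mutant (limma adjusted p = 0.0103). Timp3 kept that call in 1 of 6 fits without 1 array, the one without CFA mutant replicate 3, and Csf1r in 5, losing it without CFA mutant replicate 2.

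The difference between genotypes in the response to CFA was tested as an interaction over the 12 epidermal arrays. It called 0 of 45 collagen rows by limma in either direction, where 0.0128% of all rows were called with a larger and 0.0128% with a smaller response in mutant mice. At an unadjusted p under 0.05, 1 collagen row had a larger and 2 a smaller response, beside 4.58% of all rows with a larger and 3.68% with a smaller one, and the ordinary linear model called 0. Col12a1 had a difference of -1.01 (SE 0.36, 95% confidence interval -1.79 to -0.22, limma adjusted p = 0.480), and -1.40 with a limma adjusted p of 0.0168 without CFA mutant replicate 3, against -0.71 with a limma adjusted p of 0.665 without CFA mutant replicate 2. Col4a4 had -0.42 (limma adjusted p = 0.498), and the row with the larger response, Col6a6 row 2, was above background on 1 of the 12 arrays. A row called in one genotype and not in the other, such as Col16a1 (-0.25, limma adjusted p = 0.625) or Col6a4 (0.07, limma adjusted p = 0.939), was therefore not shown to differ between genotypes.

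**Figure D5:**
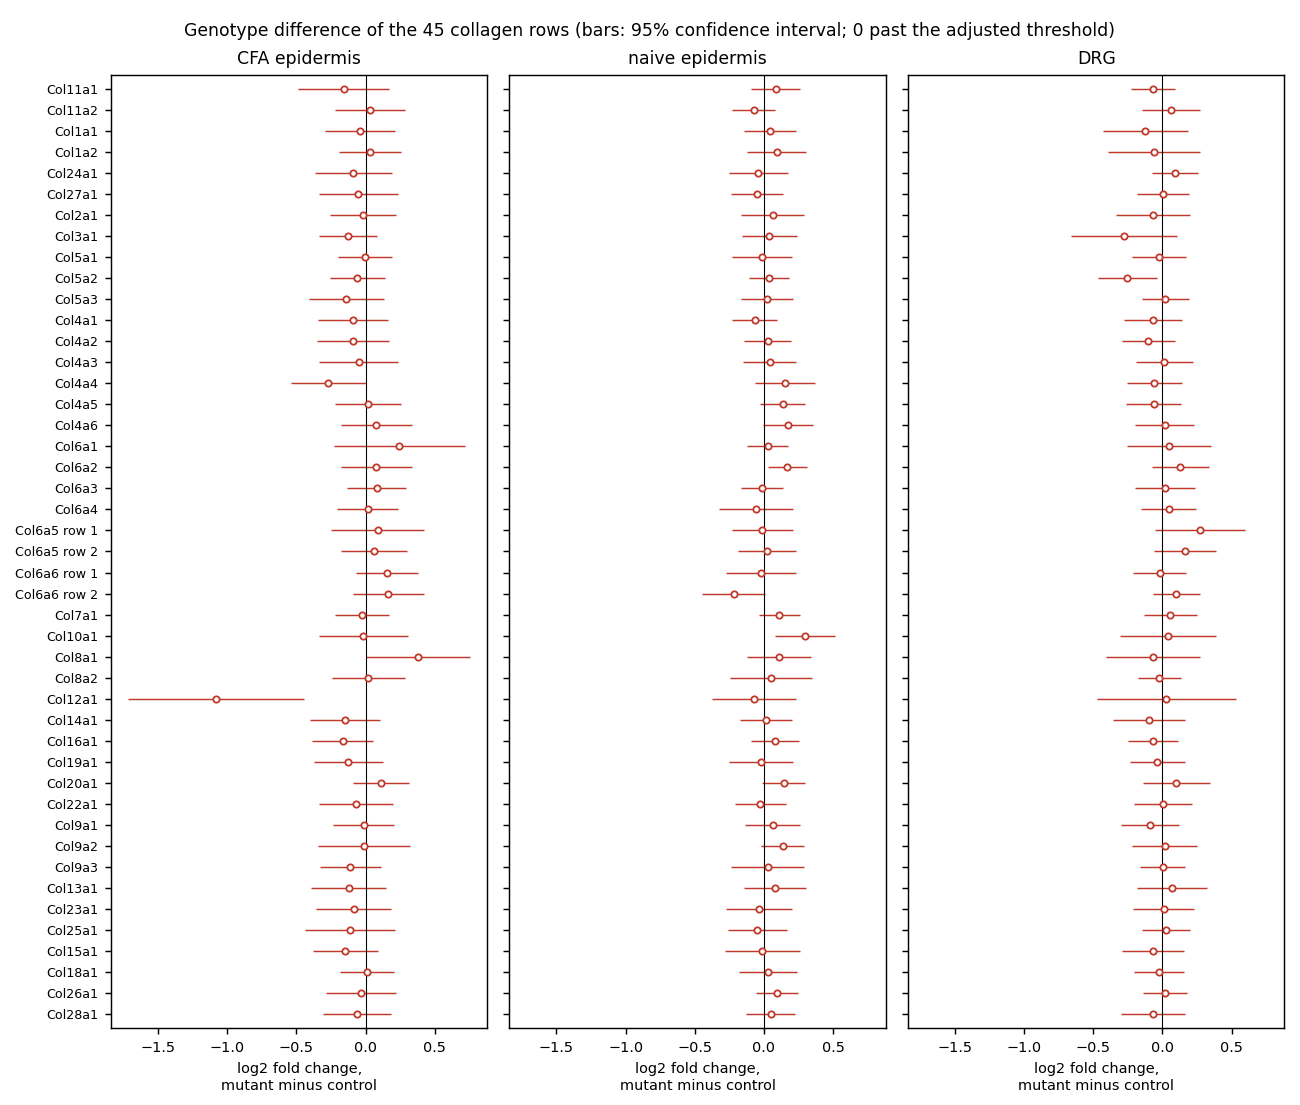
Log2 fold change, mutant minus control, of each collagen row in CFA epidermis, naive epidermis and DRG, with 95% confidence intervals from 3 arrays per group. Every point is open, since 0 of 45 rows passed the adjusted threshold in each comparison. Col12a1 in CFA epidermis lies at -1.08 and has an interval that lies wholly below 0, from -1.72 to -0.44.

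Between naive mutant and naive control epidermis limma called 0 of 45 collagen rows higher and 0 lower, where 0% of all rows were called higher and 0.0299% lower. Without adjustment 2 collagen rows were higher and 0 lower at p under 0.05, beside 4.16% of all rows higher and 4.78% lower, and the ordinary linear model called 0. The median log2 fold change was 0.03, beside -0.0035 for all rows. Col6a2 read 6.5, 6.48 and 6.53 in naive mutant and 6.31, 6.31 and 6.37 in naive control epidermis, without overlap, a log2 fold change of 0.17 (limma adjusted p = 0.498). Col10a1, the other, was below background on all of these arrays. Col7a1 read 7.0, 7.10 and 7.08 in naive mutant and 6.95, 6.94 and 6.96 in naive control epidermis, again without overlap, with 0.11 (95% confidence interval -0.04 to 0.26). Col12a1 overlapped, with -0.07 (-0.37 to 0.23). Mutant arrays lay wholly above control arrays in 7 of 45 collagen rows, beside 7.7% of all rows, and wholly below in 1, beside 8.9%. Of the receptors, Ddr2, a receptor of fibrillar collagen, had a log2 fold change of -0.68 and did not pass (limma adjusted p = 0.147).

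Among DRG, limma called 0 of 45 collagen rows higher and 0 lower, where 0.0256% of all rows were called higher and 0.047% lower. Without adjustment 0 collagen rows were higher and 1 was lower at p under 0.05, beside 3.58% of all rows higher and 3.56% lower, and the ordinary linear model called 0. The median log2 fold change was 0.0041 for the collagen rows and 0.0012 for all rows. Col5a2 read 6.71, 6.78 and 6.78 in mutant DRG and 6.81, 7.13 and 7.09 in control DRG. Col5a2, which joins collagen I in fibres, thus lay lower on every mutant array than on any control array. Its log2 fold change was -0.25 (95% confidence interval -0.47 to -0.04, limma adjusted p = 0.661). It was the sole collagen row of 45 with mutant arrays wholly below control arrays, as were 6.8% of all rows. Mutant arrays lay wholly above in 0 collagen rows, beside 5.0% of all rows. Col3a1 read 7.87, 8.29 and 8.31 in mutant DRG and 8.10, 8.73 and 8.47 in control DRG. Col1a1 read 8.57, 8.83 and 8.92 in mutant DRG and 8.63, 9.13 and 8.94 in control DRG. Col1a2 read 8.90, 9.27 and 9.25 in mutant DRG and 8.94, 9.47 and 9.19 in control DRG. These 3 fibrillar chains overlapped between genotypes, and each was lowest in replicate 1 of both genotypes.

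Replicate 1 of both DRG groups also had the lowest mean over the 14 fibroblast markers, at 8.09 in mutant replicate 1 beside 8.45 and 8.39 in the other two mutant arrays, and at 7.98 in control replicate 1 beside 8.44 and 8.26 in the other two control arrays. Col6a1 read 7.56, 7.94 and 7.82 in mutant DRG and 7.51, 7.97 and 7.69 in control DRG. Col6a2 read 7.62, 7.84 and 7.83 in mutant DRG and 7.51, 7.72 and 7.67 in control DRG. Col6a3 read 7.14, 7.19 and 7.19 in mutant DRG and 6.95, 7.31 and 7.20 in control DRG. These chains of the common collagen VI trimer were likewise lowest in replicate 1 of both genotypes, and the groups overlapped for all 3. Over all 45 collagen rows, however, DRG mutant replicate 1 was the highest of its group in 23 and the lowest in 14. DRG mutant replicate 2 was the lowest in 22. DRG control replicate 2 held the highest value of its group in 38 of 45 collagen rows, and DRG control replicate 1 the lowest in 37. The array median and background were also highest in DRG control replicate 2, at 6.58 and 5.93. They were lowest in DRG control replicate 1, at 6.51 and 5.83. The part of connective tissue content and of such array-wide differences in these levels was not tested.

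Collagen IV and collagen VII chains exceeded background on all DRG arrays. Col4a1 read 7.53, 7.58 and 7.65 in mutant DRG and 7.48, 7.79 and 7.69 in control DRG. Col4a2 read 7.29, 7.28 and 7.13 in mutant DRG and 7.20, 7.43 and 7.37 in control DRG. Col7a1 read 7.40, 7.16 and 7.37 in mutant DRG and 7.24, 7.33 and 7.20 in control DRG. The genotype groups overlapped for each of them. Col4a5 spanned 6.07 to 6.34, Col4a6 5.98 to 6.31, Col18a1 7.03 to 7.28 and Col23a1 7.08 to 7.44 over the 6 arrays. Across the 45 rows the median SD within a group of 3 arrays was 0.09 in mutant and 0.14 in control DRG, and Col12a1 had the largest SD in each, at 0.43 and 0.33. Col12a1 was also the row with the largest SD in CFA mutant epidermis, at 0.72, and in naive control epidermis, at 0.28.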

How the data were processed

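The deposited values are log2 signals that the authors made by robust multi-array averaging, with Partek named in the submitters' processing notes and no version given. They were used unchanged. Rows were named through the platform annotation, in which 21789 of 35556 rows have exactly 1 gene, 1621 several and 12146 none, and 23410 rows with at least 1 gene were tested. No counts exist for arrays, and 3 arrays per group limit the precision. Groups came from the sample labels. Comparisons used limma 3.58.1 in R 4.3.3, 2 groups at a time and the 12 epidermal arrays for the interaction, with Benjamini-Hochberg adjustment. The script was tested on simulated data. Per-array values are given for up to 12 called rows of lowest p in each comparison and for set chains of collagens I, III, IV, VI, VII, XVIII, XXIII and XXVIII. Up to 4 rows per collagen class and 3 genes per pathway or marker list were to be named in a comparison, by the smallest p, called genes first. Further genes of these lists, among them P4ha1, P4ha2, Plod2, Plod3, Ppib, Colgalt1, Dcn, Lum, Dpt, Mfap4, Acan and Comp, were named after their values were seen. Alternatives were array centring, quantile normalization, a filter on dim rows, all rows, the trend and robust options, an ordinary linear model per row (the methods name such a test), a 2-fold threshold, 1 fit over all epidermal groups, a replicate block, other background percentiles and leaving out each array. Members and lists were chosen with earlier results of these data known. Promoter windows came from a RefSeq table of GRCm38.p6, read with Python 3.11.15.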

Additional observations from a re-analysis of the deposited data

How the results depend on the processing

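In control epidermis, against 11 collagen rows called with CFA, 7 were called with all rows tested, 5 with an ordinary linear model, 1 at 2-fold and 19 with all epidermal groups in one fit, and 2 to 17 when each array was left out. In mutant epidermis, against 15, there were 9 after centring arrays on their medians, 7 with all rows tested, 1 at 2-fold, 9 with all epidermal groups in one fit, 9 with a replicate block and 4 to 11 without each array. The shares of all rows called in the same settings are not given here, so these counts do not tell a change in the collagens from one in all calls. The cause was not tested. Called rows were higher in CFA epidermis in each setting, except Col6a1, which was called lower in control epidermis without CFA control replicate 1. Between genotypes in CFA epidermis 1 row, Col12a1, was called with a replicate block (adjusted p = 0.0214) and 0 or 1 without each array, and the interaction called 0 or 1. Col12a1 in mutant epidermis missed the threshold with an ordinary linear model (adjusted p = 0.102). At the 99th percentile of background 27 collagen rows stayed above it in epidermis, against 41, beside 47.8% of all rows with exactly 1 gene, against 64.1%. The median shift in mutant epidermis was 0.17 after centring, against 0.21, and that of the interaction was 0.00 without CFA control replicate 1, against -0.08. Arrays were not paired by replicate number in the main fits. Deviations of same-numbered arrays from their group means correlated between -0.24 and 0.23. These correlations do not settle whether same-numbered arrays were handled together, which was not tested. With the replicate block 8 rows were called in control epidermis. Alternatives for pathway and marker genes were added after seeing the data. With 3 arrays per group, only Col12a1 and Col7a1 in both genotypes and Col27a1 and Col6a3 in mutant epidermis kept their calls with CFA under every left-out array, and no called collagen row changed sign under any alternative run.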

Other observations

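The mean of the differentiated keratinocyte markers was 6.40 in DRG mutant replicate 1, against 5.72 and 5.74 in the other two mutant arrays and 5.52 to 5.98 in the control arrays.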
